A study of Mus musculus with 12 samples.

Results

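Voltage-gated calcium channel subunits were described as 10 genes, taken by symbol from a table of read counts for 24061 mouse gene identifiers. They were 5 pore-forming subunits (the L-type Cacna1s, Cacna1c and Cacna1d, and the T-type Cacna1g and Cacna1h), 3 beta subunits (Cacnb1, Cacnb2 and Cacnb3) and 2 alpha2delta subunits (Cacna2d1 and Cacna2d2). The group was drawn around Cacna1s, which was chosen by its CPM values, higher in knockout than in wild-type hearts with 1 knockout heart, K9, low. That contrast of Cacna1s and the place of K9 in it are therefore given as a description, without a test, while the other 9 genes joined by family and are read from the test over all genes. All 10 passed the filter on low counts.

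RNA of the entire heart came from 12 male mice aged 4 months. The 6 knockout mice (K7 to K12) carried floxed Slc4a4, the gene of the sodium-bicarbonate cotransporter NBCe1, together with Cre recombinase under a β-myosin promoter, described as active in cardiac myocytes, for removal of exon 12. The 6 controls (W1 to W6), labelled wild type, carried the floxed alleles without Cre, so the deletion and the presence of Cre cannot be told apart. Cells of the heart other than myocytes were not targeted. The design addresses which heart transcripts differ between mice with floxed Slc4a4 and Cre and mice with floxed Slc4a4 alone.

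Voltage-gated calcium channels open when the membrane depolarises and let calcium into the cell. The pore subunit carries the current and the voltage sensor, and beta subunits bind L-type pore subunits inside the cell and help bring them to the membrane. The alpha2delta subunits sit on the outside and raise the number of channels at the surface. In ventricular myocytes the L-type current through the Cacna1c product triggers calcium release from the sarcoplasmic reticulum through the ryanodine receptor Ryr2. T-type channels open at more negative voltages and are known from pacemaker cells and from the developing heart. Cacna1s encodes the pore subunit of skeletal muscle, where it acts as the voltage sensor that couples directly to the ryanodine receptor Ryr1, with Cacnb1 as its usual beta subunit.

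Because Cacna1s and Cacnb1 had the largest fitted differences among the 10 genes, their start regions are shown. Each window is 300 bases of RefSeq sequence on GRCm38.p6, from 250 bases before the annotated start to 50 after it, written 5′ to 3′ along the gene. Capitals mark E-boxes (CANNTG, read on both strands, a motif bound by basic helix-loop-helix factors). Cacna1s has 1 window, at chr1:136052561-136052860 on the plus strand. Cacnb1 has 2 windows on the minus strand, at chr11:98022578-98022877 and chr11:98018323-98018622.
Cacna1s: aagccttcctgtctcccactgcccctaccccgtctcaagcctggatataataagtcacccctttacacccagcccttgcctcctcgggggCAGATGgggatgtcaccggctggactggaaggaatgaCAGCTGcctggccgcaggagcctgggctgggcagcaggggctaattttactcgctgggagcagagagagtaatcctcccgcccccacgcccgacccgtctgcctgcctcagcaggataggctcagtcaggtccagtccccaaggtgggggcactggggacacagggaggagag
Cacnb1 window 1: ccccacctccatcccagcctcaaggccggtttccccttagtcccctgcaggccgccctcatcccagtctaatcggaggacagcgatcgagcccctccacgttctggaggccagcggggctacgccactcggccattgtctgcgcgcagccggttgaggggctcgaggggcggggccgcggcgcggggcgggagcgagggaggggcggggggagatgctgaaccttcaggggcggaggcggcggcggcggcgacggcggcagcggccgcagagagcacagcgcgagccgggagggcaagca
Cacnb1 window 2: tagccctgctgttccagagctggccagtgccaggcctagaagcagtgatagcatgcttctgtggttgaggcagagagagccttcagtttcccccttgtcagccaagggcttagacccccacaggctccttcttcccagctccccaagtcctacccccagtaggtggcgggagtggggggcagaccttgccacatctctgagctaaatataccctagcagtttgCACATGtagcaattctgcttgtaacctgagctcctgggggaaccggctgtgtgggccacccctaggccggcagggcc
The Cacna1s window held 2 E-boxes, CAGATG and CAGCTG, of which the second is the letters CAGCTG also searched for on their own. The first Cacnb1 window held none and the second held 1. Across 32851 windows of this length, 72.3% held at least 1 CANNTG and 39.6% held at least as many as the Cacna1s window. CAGCTG, which overlaps CANNTG, was held by 16.3%. GGGCGG, the GC box on either strand, occurred 5 times in the first Cacnb1 window and 1 time in that of Cacna1s. At least 1 was found in 35.7% of all windows, and the share with 5 or more was not counted. TATAAA and the MEF2 motif were found in none of these 3 windows, against 13.6% and 3.19% of all windows. These are matches of letters and say nothing about factor binding in these hearts. RefSeq windows were at hand for 8 of the 10 genes.

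Libraries held 11367980 to 13327519 counts in wild type and 10631869 to 12756955 in knockout, 6 in each group. Values below are CPM, counts scaled to a library of 1000000 reads after TMM scaling, unless stated. Slc4a4 checked the labels: its level was lower than in every wild-type heart in 5 of 6 knockout hearts, K9 among them, with a log2 fold change of -0.81 (SE 0.14, edgeR adjusted p = 0.089). Over 13832 genes tested, edgeR called 0% at an adjusted p of 0.05, and 4.06% had an unadjusted p under 0.05. Cardiac myocyte markers (8 genes) summed to 44322 to 50678 CPM of the raw totals in wild type and 45103 to 48437 in knockout, and that sum was 47011 in K9. Liver markers were near 0 in wild type (0.232 to 1.65 CPM over 8 genes) and higher in knockout (2.14 to 82.5 CPM, the highest in K7). Red cell markers (3 genes) summed to 3584 to 18473 CPM in wild type and 2799 to 6887 in knockout. In whole-heart RNA, fewer cells of a type and less RNA per cell cannot be told apart.

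Of the 9 subunits other than Cacna1s, 0 passed the test (0% of all genes did). DESeq2, which called 0.0736% of the genes it tested, and limma-voom also called 0 of the 9. Groups without any overlap were seen for 0.253% of all genes and for 0 of the 10 subunits. By unadjusted p, 1 of the 9 was under 0.05, Cacnb1, where 4.06% of all genes were. The signs were 2 positive and 7 negative, with a median log2 fold change of -0.04 against 0.00 over all genes. For 8 of the 9 the 95% interval included 0. Apart from these tests, the levels below show that the pore, beta and alpha2delta classes were each led by the same gene in both groups.

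**Figure D1:**
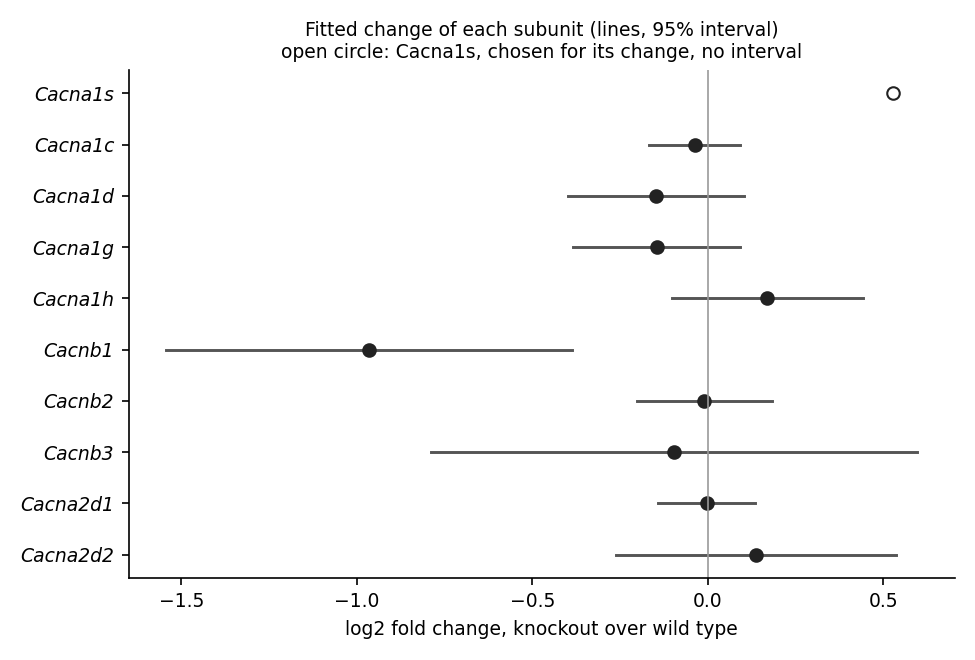
Fitted log2 fold change of each subunit gene, knockout over wild type, with 6 hearts per group. Filled points carry 95% intervals as lines, and Cacnb1 is the filled point whose interval lies below 0, from -1.54 to -0.39. The open circle is Cacna1s at 0.53, which was chosen for this contrast and has no interval.

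Among the L-type pore subunits, Cacna1s (chromosome 1, 136052806 to 136119822) had wild-type values close together, with a lowest of 26.1, a median of 27.5 and a highest of 29.5 CPM. In knockout the lowest was 25.3, the median 42.9 and the highest 46.9 CPM. K9 held the lowest value of all 12 hearts and K8 the next lowest of the knockout hearts at 37.9, so 5 of 6 knockout hearts exceeded the highest wild-type heart and 1 lay under the lowest. Over all genes tested, 0.824% had at least 5 knockout hearts above every wild-type heart. The SD was 1.41 CPM among wild-type hearts against 7.67 CPM among knockout hearts. The fitted difference was 0.53 on the log2 scale (1.44-fold), and without K9 it was 0.63. Another 2 genes overlap it in the GENCODE M21 annotation, of which Gm37759 lies antisense over its 3′ end. The counting is not stated to use strand, so reads of that antisense gene cannot be told apart from those of Cacna1s.

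Cacna1c, the principal pore subunit of the ventricular L-type channel, ranged from 379 to 463 CPM in wild type with a median of 398, and from 359 to 424 CPM in knockout with a median of 396. The groups overlapped almost fully, with K9 the lowest heart. The log2 fold change was -0.04 with a 95% interval from -0.17 to 0.09 (edgeR adjusted p = 0.999). Cacna1d, an L-type pore subunit known from the sinoatrial node and atria, ranged from 10.4 to 13.2 CPM with a median of 12.5 in wild type. In knockout it ranged from 8.40 to 12.6 CPM with a median of 10.8, again with K9 lowest and the other 5 hearts within the wild-type range. Its log2 fold change was -0.15 (95% interval -0.40 to 0.10, edgeR adjusted p = 0.999). Dcp1a, a gene on the opposite strand, shares 11921 bases with the Cacna1d locus and Dcp1b shares 21166 bases with that of Cacna1c, introns included.

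The T-type pore subunits had fitted changes of opposite sign, and neither passed the test. Cacna1g ranged from 28.0 to 40.5 CPM in wild type with a median of 34.0, and from 21.5 to 36.3 CPM in knockout with a median of 31.4. K9 was below every other heart and the remaining knockout hearts lay within the wild-type range (log2 fold change -0.15, 95% interval -0.38 to 0.09, edgeR adjusted p = 0.999). Without K9 the log2 fold change of Cacna1g was -0.07. Cacna1h, which is also expressed in smooth muscle, ranged from 26.6 to 43.2 CPM with a median of 31.2 in wild type, and from 28.5 to 48.3 CPM with a median of 35.9 in knockout. One knockout heart, K11, lay above every wild-type heart (log2 fold change 0.17, 95% interval -0.10 to 0.44, edgeR adjusted p = 0.999). Without K11 its log2 fold change was 0.08 and without W5 it was 0.26. The 8 smooth muscle and pericyte markers summed to 1402 to 1560 CPM in wild type and 1484 to 1630 in knockout. Their median log2 fold change was 0.06, with 7 positive and 1 negative. Acta2, which had the smallest p of the 8, averaged 139 CPM in wild type and 181 in knockout (edgeR adjusted p = 0.999). The part of these cells in the Cacna1h values was not tested.

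**Figure D2:**
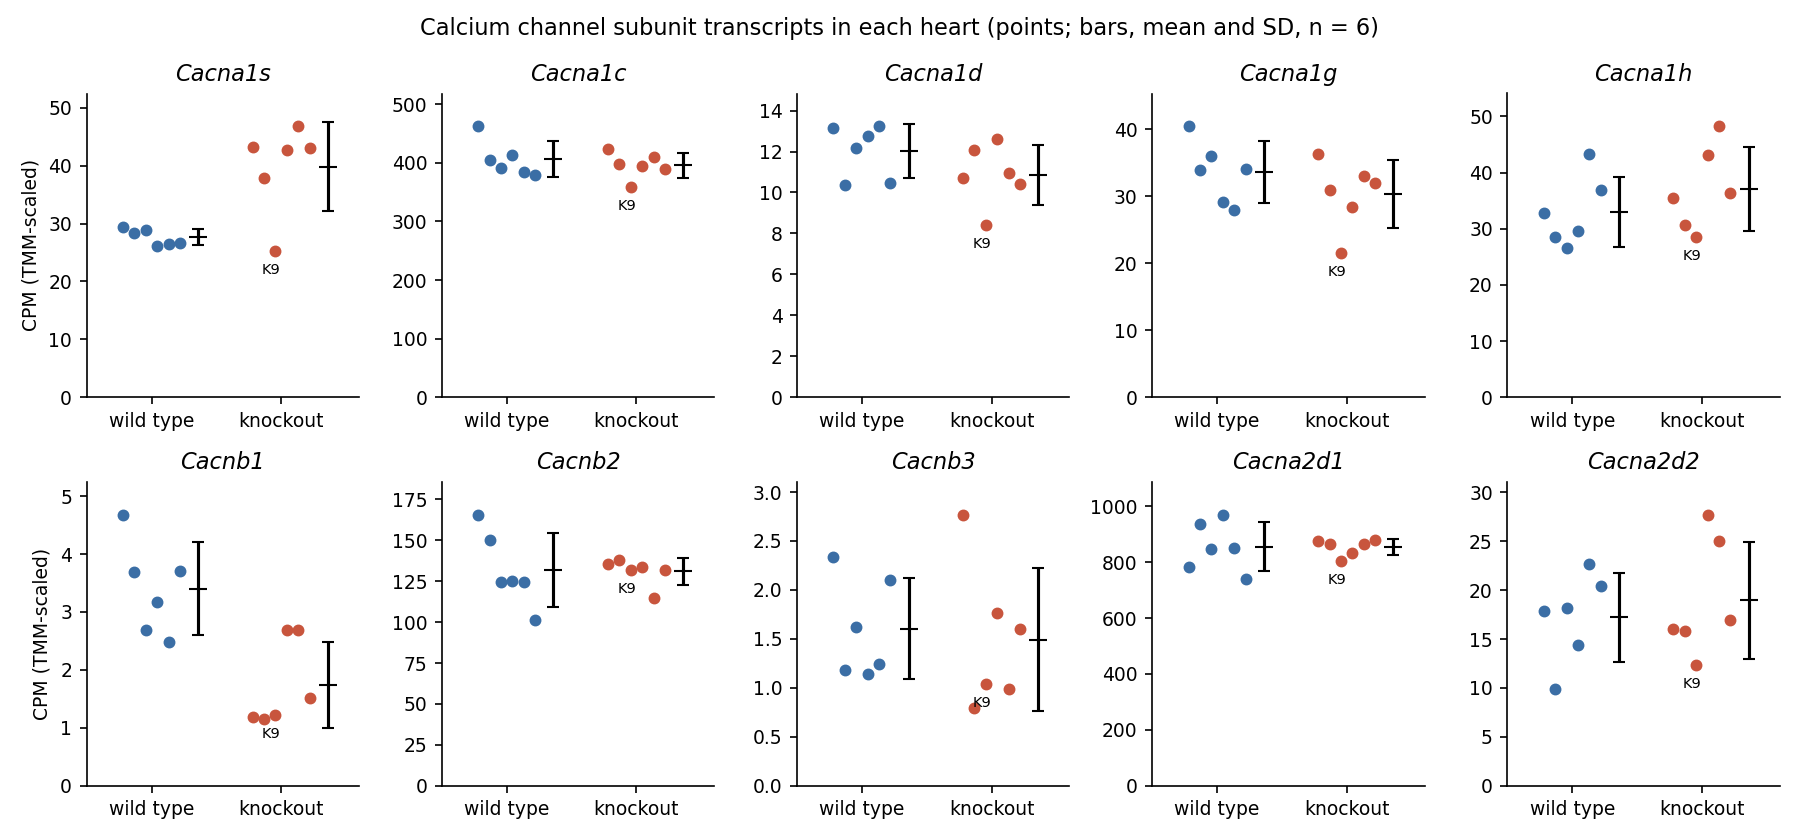
TMM-scaled CPM of each subunit gene in each heart (blue, wild type; red, knockout), with mean and SD of 6 hearts beside the points and K9 labelled. Cacna1s is above the highest wild-type heart (29.5 CPM) in 5 of 6 knockout hearts, Cacnb1 is below the lowest wild-type heart (2.48 CPM) in 4 of 6, and the other 8 genes overlap more.

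Among the beta subunits Cacnb1 stood lower in knockout by value. It ranged from 2.48 to 4.68 CPM in wild type with a median of 3.43, and from 1.15 to 2.69 CPM in knockout with a median of 1.37. K7, K8, K9 and K12, at 1.15 to 1.51 CPM, lay below every wild-type heart, while K10 and K11, both at 2.69, lay within the wild-type range. Over all genes tested, 2.46% had at least 4 knockout hearts below every wild-type heart. The log2 fold change was -0.97 (SE 0.28, 95% interval -1.54 to -0.39, unadjusted p = 0.0023 in edgeR's quasi-likelihood test). This was the 28th smallest of 13832 p-values, a place that so many tests reach without any difference between the groups. Adjusted over all genes it did not pass (edgeR adjusted p = 0.999, DESeq2 adjusted p = 0.35), and the adjusted p ran from 0.351 to 1 over 21 alternatives. The gene is read from few counts, 32 to 62 reads per wild-type library and 13 to 30 per knockout library. Red cell markers were lower in the same direction (median log2 fold change -0.75), which rested in large part on W2, since without it the median was -0.26. W2, the heart with the most of these markers, held 3.69 CPM of Cacnb1 against 4.68 in W1. The part of residual blood in Cacnb1 was not tested.

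Cacnb2, the main beta subunit of cardiac myocytes, ranged from 101 to 166 CPM in wild type with a median of 125, and from 115 to 138 CPM in knockout with a median of 133. Every knockout heart lay within the wild-type range, and the SD was 22.6 CPM in wild type against 8.17 in knockout. The log2 fold change was -0.01 (95% interval -0.20 to 0.18, edgeR adjusted p = 0.999). Cacnb3, a beta subunit best known from smooth muscle and neurons, was the lowest of the 10 genes, with 9 to 35 reads per library. It ranged from 1.14 to 2.34 CPM in wild type with a median of 1.43, and from 0.798 to 2.77 CPM in knockout with a median of 1.32. Knockout hearts lay on both sides of the wild-type range, and the interval of the log2 fold change, -0.79 to 0.60, was the widest of the 9 genes tested.

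The alpha2delta subunits did not differ beyond the spread between hearts. Cacna2d1, the main cardiac alpha2delta subunit and a target of gabapentin, ranged from 742 to 971 CPM in wild type with a median of 849, and from 804 to 880 CPM in knockout with a median of 865. Its log2 fold change was 0.00 with a 95% interval from -0.14 to 0.14 (edgeR adjusted p = 0.999). Cacna2d2, which in mice is best known from cerebellar neurons, ranged from 9.89 to 22.7 CPM in wild type with a median of 18.0. In knockout it ranged from 12.4 to 27.7 CPM with a median of 16.4, and K10 and K11 lay above every wild-type heart. The log2 fold change was 0.14 with a 95% interval from -0.26 to 0.54 (edgeR adjusted p = 0.999), and without K10 it was 0.00016.

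Levels of different genes were compared as CPM per kilobase of exon, over all 12 hearts. Cacna2d1 was highest at 68.8 ± 5.0 (SD, n = 12), followed by Cacna1c at 18.9 ± 1.2 and Cacnb2 at 9.94 ± 1.23. These are the pore, beta and alpha2delta genes usually named for the ventricular L-type channel, and each pair kept its order in 12 of 12 hearts. Cacna1s came next at 4.22 ± 0.22 in wild type and 6.08 ± 1.17 in knockout (n = 6 each). Cacna1h (3.59 ± 0.71), Cacna1g (3.15 ± 0.48) and Cacna2d2 (2.28 ± 0.65) followed close together. Cacna1s exceeded Cacna1h in 11 hearts, Cacna1h exceeded Cacna1g in 9, and Cacna1g exceeded Cacna2d2 in 10, so these neighbours were not separated in every heart. Cacna1d stood at 0.906 ± 0.116, Cacnb1 at 0.568 ± 0.251 and Cacnb3 at 0.386 ± 0.151. Cacnb1 exceeded Cacnb3 in 6 of 6 wild-type and 4 of 6 knockout hearts. With the longest transcript as length in place of the union of exons the order of the 10 genes was the same.

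**Figure D3:**
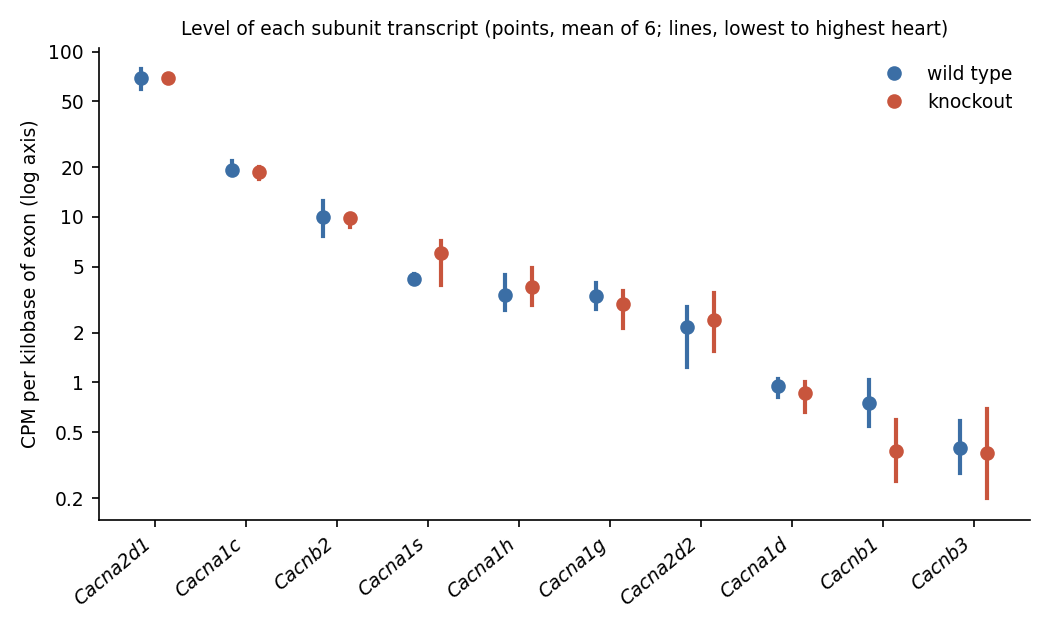
TMM-scaled CPM per kilobase of exon on a log axis for the 10 subunit genes, ordered by their mean over 12 hearts (points, group means of 6 hearts; lines, lowest to highest heart; blue, wild type; red, knockout). Cacna2d1, Cacna1c and Cacnb2 are the 3 highest in both groups, and the groups separate most for Cacna1s and Cacnb1.

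Shares within each class describe the make-up of the channel transcripts in each heart. Among the 5 pore genes, per kilobase, Cacna1c made up 61.7% ± 1.8 in wild type and 57.9% ± 3.4 in knockout (SD, n = 6 each). Cacna1s made up 13.6% ± 0.7 and 18.6% ± 2.1. Since Cacna1s was chosen for its higher values in knockout, the share of the other pore genes is lowered by it in knockout. In K9 the transcript ratio of Cacna1s to Cacna1c per kilobase was 22.8%, inside the wild-type range of 20.4% to 23.8%, while the highest knockout heart reached 37.0%. Cacna1s was chosen with K9 low, and Cacna1c differed little between hearts. The place of K9 in this ratio follows largely from that choice, so it is a description and supports nothing further. The T-type genes kept similar shares, with Cacna1g at 10.7% ± 1.1 and 9.19% ± 0.87, and Cacna1h at 10.9% ± 2.2 and 11.7% ± 1.6. Among the 3 beta genes Cacnb2 made up 89.6% ± 2.4 in wild type and 92.9% ± 2.1 in knockout, and Cacnb1 6.77% ± 1.34 and 3.66% ± 1.69. Cacna2d1 made up 96.9% ± 1.0 and 96.7% ± 1.0 of the alpha2delta pair. With the longest transcript as length the Cacna1s share was 9.94% in wild type and 13.8% in knockout, so the size of these shares depends on the length used.

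The hearts differed in how many subunit genes they placed high or low. K9 held the lowest value of all 12 hearts for 4 of the 10 genes, Cacna1c, Cacna1d, Cacna1g and Cacna1s, the last chosen with K9 low. It lay below the median of the hearts for 9 of the 10, Cacna1s among them. The exception was Cacnb2, at 132 CPM in K9. K9 was also the shallowest library, at 10631869 counts. W1 held the highest value for 4 of the 10 genes, Cacna1c, Cacna1g, Cacnb1 and Cacnb2, and was below the median for 2. Besides Cacna1s, the pore genes Cacna1c, Cacna1d and Cacna1g thus had their lowest heart in K9, and their groups overlapped. The same counts over all genes are not given here, so they cannot be called particular to these subunits.

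**Figure D4:**
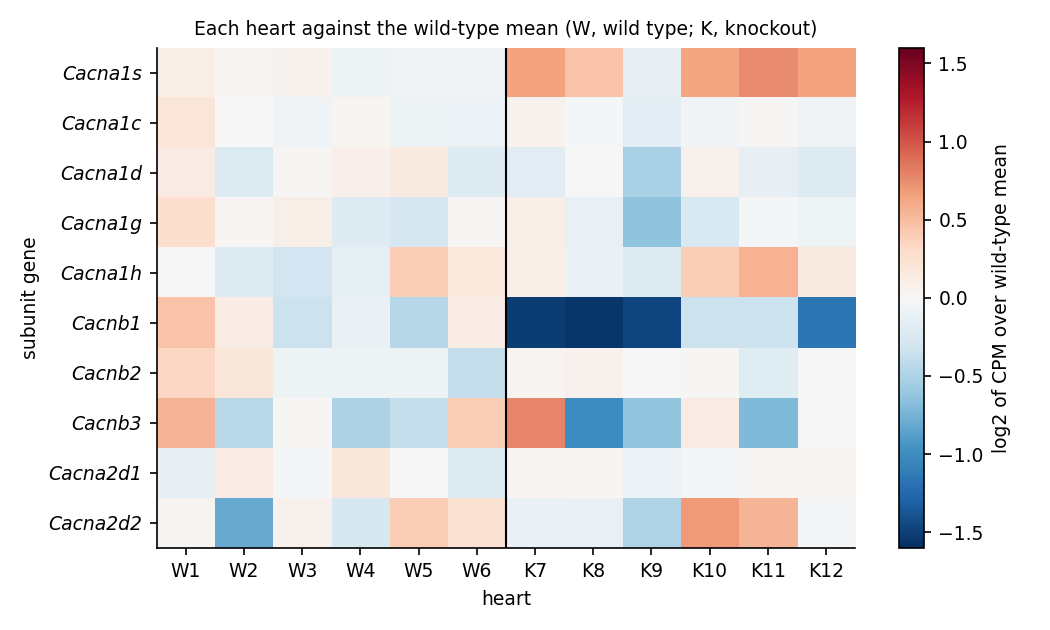
Log2 of each heart's CPM over the wild-type mean of the same gene, for 10 subunit genes (rows) in 12 hearts (columns; W, wild type; K, knockout). K9 is below the wild-type mean in every row but Cacnb2, the other 5 knockout hearts are above it for Cacna1s, and all 6 knockout hearts are below it for Cacnb1.

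How the other genes followed Cacna1s from heart to heart was described by Pearson's r of log2 CPM over 12 hearts, among the 10761 genes whose mean reached 5 CPM. These values share the same libraries and carry no test. With group means subtracted the contrast between genotypes plays no part, but the low value of K9, by which Cacna1s was also chosen, remains. In this form r with Cacna1s was 0.81 for Cacna1g (Spearman's rho 0.78, 14th of 10761), 0.61 for Cacna1c, 0.56 for Cacna1d, 0.49 for Cacna1h, 0.47 for Cacna2d2, 0.21 for Cacna2d1 and 0.04 for Cacnb2. Without K9 these were 0.57 for Cacna1g, 0.42 for Cacna1c and -0.21 for Cacna1d, so much of the likeness came from that heart and supports nothing beyond it. Cacnb1 and Cacnb3 were too low for this comparison. The 5 named genes most like Cacna1s in this form were Map2k6, a kinase upstream of p38, with r = 0.91, Impa2, an inositol monophosphatase (0.90), Ccm2, a scaffold protein of endothelial junction signalling (0.90), Dnmbp, a scaffold protein that binds dynamin (0.90), and Kbtbd13, a kelch protein of striated muscle (0.87). All 5 had their lowest value in K9, as 3.40 CPM of Map2k6 there against 7.03 to 10.9 in the other hearts. Without K9, 0 of these 5 stayed among the 5 highest.

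As measured, with the group difference left in, the 5 genes most like Cacna1s were Kcnj11, Klhl30, Mtus2, Nmnat3 and Tmed1. Kcnj11, the pore of the ATP-sensitive potassium channel, had r = 0.88 and rho = 0.95, and r = 0.80 without K11 and K7, the hearts farthest from the median of Cacna1s. Its wild-type mean was 79.9 ± 4.4 CPM and its knockout mean 91.4 ± 10.1 CPM (SD, 6 hearts each; edgeR adjusted p = 0.999), with K9 the lowest knockout heart at 76.2 CPM. Klhl30, a kelch protein, had r = 0.87 and averaged 18.2 and 23.8 CPM (edgeR adjusted p = 0.96). Mtus2, a microtubule-associated protein, and Nmnat3, an enzyme of NAD synthesis, had r = 0.86 and 0.85. Tmed1, a cargo receptor of the early secretory pathway, had r = 0.84 and averaged 26.2 and 33.5 CPM (edgeR adjusted p = 0.99). This form repeats the contrast for which Cacna1s was chosen, so genes higher in knockout were favoured.

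Other channel subunits were scarce. Of 16 further genes of the family, 4 had enough reads to be tested, and 0 were called by edgeR, DESeq2 or limma-voom. By unadjusted p, 1 of the 4 was under 0.05, where 4.06% of all genes were. That gene was Cacna2d3, an alpha2delta subunit (log2 fold change -0.54, SE 0.24, edgeR adjusted p = 0.999). It ranged from 2.28 to 3.49 CPM in wild type and from 1.42 to 2.78 CPM in knockout. In 4 of 6 knockout hearts it lay below every wild-type heart, where 2.46% of all genes had at least 4 such hearts. Cacng7 averaged 1.23 and 0.883 CPM, and Cacnb4, a beta subunit, 5.59 and 6.36 CPM. The median of the 4 was -0.22 against 0.00 over all genes. Cacng1, the gamma subunit of the skeletal muscle channel, had 11 reads in all, 8 of them in W1, and none in W2, W4, W6 or any knockout library. Cacna1i, the remaining T-type pore gene, had 65 reads over the 12 libraries, and the 3 genes Cacng2, Cacng3 and Cacng8 had 0.

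Regulators and anchoring proteins of the L-type channel gave no call. Of 22 genes, 19 were tested, 14 with positive and 5 with negative fold changes, and 0 had an unadjusted p under 0.05. Their median log2 fold change was 0.04. Rrad, a small GTP-binding protein that inhibits L-type channels through the beta subunit, had means of 74.8 (wild type) and 87.4 CPM (knockout; log2 fold change 0.22, SE 0.14, edgeR adjusted p = 0.999). Rrad was lower in K9, at 58.0 CPM, than in the other knockout hearts, at 82.3 to 117 CPM. The K9 value lay within the wild-type range of 55.5 to 93.6 CPM. Ahnak, a large scaffold protein that binds beta subunits, averaged 1612 and 1461 CPM, and Calm2, 1 of the calmodulin genes, 153 and 164 CPM. In K9 Ahnak was 1438 CPM, within the range of the other knockout hearts, while Calm2 was 182 CPM, its highest value in any heart. Cacna1s was chosen with K9 low, so likeness to it in that heart supports nothing. None of these differed beyond the spread of the hearts by the test.

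Genes that work beside Cacna1s at the skeletal muscle triad were examined next. Of 10 genes, 7 were tested, 4 with positive and 3 with negative fold changes, and 0 were called. By unadjusted p, 1 of the 7, Casq1, was under 0.05, where 4.06% of all genes were. Casq1, the calsequestrin of skeletal muscle, ranged from 19.5 to 35.3 CPM in wild type and from 23.3 to 38.5 CPM in knockout (log2 fold change 0.41, SE 0.14, edgeR adjusted p = 0.999). The groups overlapped, and in K9, the heart low in Cacna1s, Casq1 was 33.3 CPM. Jph1 averaged 40.2 and 43.5 CPM and Asph, the junctin gene, 273 and 283 CPM. Ryr1, the release channel that Cacna1s controls in skeletal muscle, had 90 reads over the 12 libraries, and Stac3, an adaptor that the skeletal channel needs, had 103. Jsrp1 had 3 reads.

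Markers of fast skeletal fibres were read in the same libraries, since Cacna1s is a skeletal muscle gene. The 16 markers summed to 72.1 to 106 CPM in wild type and 88.0 to 108 CPM in knockout. Myod1, Myog and Myf6, factors of the skeletal muscle lineage, were at 0 in every library. Tnnt3 and Tnni2, of the fast troponin complex, had 57 and 83 reads in all, and Actn3 had 90. Of 6 tested markers 3 had positive and 3 negative fold changes, 0 were called, and their median was -0.01. By unadjusted p, 1 of the 6 was under 0.05, where 4.06% of all genes were. That marker was Atp2a1, the calcium pump of fast fibres, with means of 2.19 ± 0.74 CPM (wild type) and 3.99 ± 1.93 CPM (knockout; SD, 6 hearts each; log2 fold change 0.85, edgeR unadjusted p = 0.0089, adjusted p = 0.999). The next smallest p was that of Neb, the nebulin gene, with a log2 fold change of 0.35 (edgeR unadjusted p = 0.067, adjusted p = 0.999). Myl1 averaged 44.0 CPM in wild type and 46.4 in knockout. Myh1 (11.8 and 10.1 CPM), Myh4 (11.1 and 10.4) and Mybpc2 (8.89 and 7.99) were lower by mean in knockout. The highest heart for Atp2a1 was K9, at 7.74 CPM, the heart by whose low value Cacna1s was also chosen. The part of skeletal muscle RNA in the Cacna1s values was not tested. Markers of atria (1141 to 1684 CPM in wild type, 1350 to 1641 in knockout over 6 genes) and of nodes and conduction (89.6 to 115 CPM in both groups over 8 genes) overlapped between the groups. Liver markers, higher in knockout, summed to 82.5 CPM in K7, 12.1 in K8, 11.8 in K9, 7.04 in K10, 5.87 in K11 and 2.14 in K12. Cacna1s in these hearts was 43.2, 37.9, 25.3, 42.7, 46.9 and 43.1 CPM in the same order. The part of liver RNA in the Cacna1s values was not tested.

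Genes next to Cacna1s on chromosome 1 gave no call. Of genes with any base within 1 Mb on either side, 20 of 34 were tested, 11 with positive and 9 with negative fold changes. Their median log2 fold change was 0.01, the range -0.30 to 0.28, and 0 were called. By unadjusted p, 2 of the 20 were under 0.05, where 4.06% of all genes were. These were Ptpn7, a phosphatase of blood cells, with means of 7.07 (wild type) and 8.58 CPM (knockout), and Ddx59, a helicase, at 10.7 and 8.71 CPM. Tmem9, the nearest tested gene before Cacna1s, averaged 9.11 and 9.73 CPM. Kif21b, the nearest after it, averaged 3.06 and 2.83 CPM. Ascl5, which lies directly before Cacna1s, had 0 reads. At the ends of the window Lgr6 averaged 86.7 and 87.7 CPM, and Nr5a2 1.26 and 1.22 CPM. Cardiac troponin T, Tnnt2, lies in the same window and averaged 3326 and 3167 CPM.

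**Figure D5:**
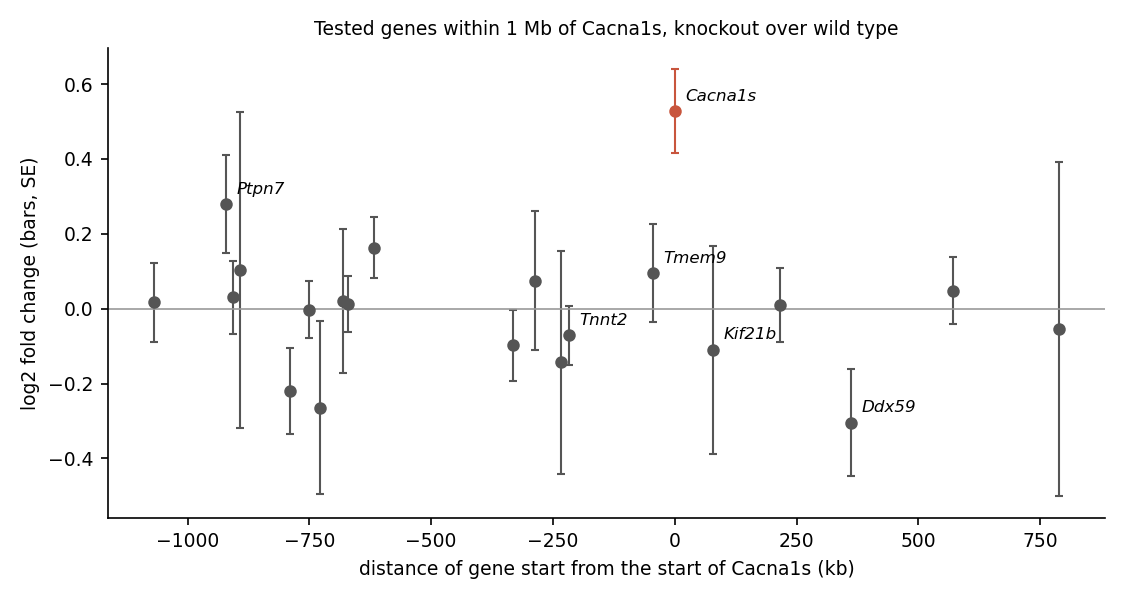
Log2 fold change (points; bars, SE) of the tested genes within 1 Mb of Cacna1s against the distance of their start from that of Cacna1s in kilobases. The 20 neighbours lie between -0.30 and 0.28, and Cacna1s lies at 0.53. Cacna1s was chosen for this contrast, so its bar is no test.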

How the data were processed

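Total RNA of 12 hearts was sequenced, 1 library per mouse, and groups follow the labels. The authors deposited 1 table of raw read counts by gene. Per the design text, libraries were run on a HiSeq 1000 and aligned with TopHat. The submitters' processing notes name mm10, bcl2fastq, CASAVA 1.8, TopHat and DESeq. The counting program, annotation and strand setting are unstated in the labels. RefSeq of GRCm38.p6, the same build, named 23976 identifiers and left 85 unnamed, and exon lengths came from GENCODE M21.

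The main test was edgeR 4.0.16 under R 4.3.3 (filterByExpr with a minimum count of 10 and a minimum total of 15, TMM, quasi-likelihood F test, Benjamini-Hochberg over 13832 genes, threshold 0.05). Log2 CPM used a prior count of 2. Alternatives included DESeq2 1.42.0 and limma-voom (limma 3.58.1). The code was checked on simulated counts. Members, gene lists and tests were chosen with earlier results of these data known. Named genes were Slc4a4, the 10 subunits, the 3 smallest p-values in each pathway list, the 5 genes most like Cacna1s in each form, skipping predicted genes, and for the neighbours those with an unadjusted p under 0.05 and the first and last. Acta2, Atp2a1, Neb, the other tested fast fibre markers, Tmem9, Kif21b, Tnnt2 and low genes given as reads were picked after their values were seen. Plots were drawn with matplotlib 3.10.9.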

Additional observations from a re-analysis of the deposited data

Results flagged for a closer look

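Cacnb2 in K11, at 115 CPM, lay far below the other knockout hearts, of which the next lowest held 132 CPM. It was the 1 heart apart in 44 sets of 6 values examined, where chance gives about 1 in 20, or 2.2 sets. A heart was set apart by Dixon's 95% critical value for 6 hearts. The sets included those of Cacna1s, which was chosen with K9 low. Its gap from K9 to the next knockout heart, 0.582 of the range of the group, is therefore a description and no test.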

How the results depend on the processing

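Over 21 alternatives the fitted log2 fold change of Cacna1s ran from 0.48 to 0.63, where its choice fixes the sign, and that of Cacnb1 from -1.13 to -0.85. The 9 other subunits and the pathway lists had 0 calls in every alternative run. Over all genes the count of calls was 0 and became 12 with DESeq2, 16 with no filter on low counts and 3 at an adjusted p of 0.1. Leaving out 1 heart gave 0 to 2 calls, 1 without W6, K7, K8 or K9 and 2 without K11 or K12. Signs turned for 4 genes with fitted changes near 0. Limma-voom gave 0.00355 for Cacnb2 and 0.00366 for Cacna2d1, library totals gave 0.00548 for Cacna2d1, and leaving out W2 and K7 together gave 0.016 and 0.015. With 1 heart left out, Cacna1c ran from -0.057 to 0.0039 (positive without W1), Cacnb2 from -0.075 to 0.066 (without W1, W2 or K11), Cacnb3 from -0.38 to 0.044 (without W1 or K8) and Cacna2d1 from -0.040 to 0.034 (without W2, W4, K9 or K10). The causes were not tested. Slc4a4 passed the threshold with DESeq2, with no filter and without K8 (adjusted p = 0.000511, 0.0135 and 0.0275). Using the longest transcript moved 26 of the levels and shares by more than the spread between hearts. Of the 5 genes most like Cacna1s, with group means subtracted 0 stayed among the 5 highest by Spearman's rho, without K9 or without the 2 hearts farthest from the median, and as measured 3, 2 and 0 did, the last alternative chosen after seeing the data. No paired analysis was possible because the groups share no replicate number. Each library is a separate mouse. Cacnb1 and Cacnb3, with 371 and 223 reads over all libraries, are limited by depth.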
